A study of Mus musculus with 12 samples.

Results

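Immediate early genes are transcribed within minutes of a stimulus from factors already present in the cell, with no need for new protein synthesis. In brain they are best known as markers of recent neuronal firing, driven by calcium and MAP kinase signals that reach CREB and SRF at their promoters. Glia, endothelium and leukocytes use many of the same genes in response to growth factors, cytokines and stress. The genes described here were taken by symbol from the first column of the deposited count table, and number 10 of the 21983 genes in it. They are the AP-1 subunit genes Fos, Fosb and Junb, the zinc finger genes Egr1, Egr2 and Egr4, the neuronal transcription factor gene Npas4, the orphan nuclear receptor gene Nr4a1, and the effector genes Arc and Cyr61.

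RNA-seq was made from brain of 6-week-old wild type C57BL/6 mice in 3 groups of 4 libraries. The groups were mice with experimental cerebral malaria (ECM) given artesunate, an antimalarial drug, over 4 days (treated ECM), mice with ECM, and normal mice (control). The parasite, the time since infection and any handling before collection are not given in the labels, and no vehicle is named for the ECM or control mice. Nothing in the labels ties each library to an animal of its own, so p-values measure the spread between these libraries, which may be technical.

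Egr2, a zinc finger factor gene best known from myelinating Schwann cells, was listed at 0 in all 12 libraries. Jund, an AP-1 gene that most cells transcribe, was also listed at 0 in all 12, so a 0 in this table cannot be read as absence. The other 9 genes had counts in every library, the lowest being 15 reads for Egr4 in ECM 3, and all 9 were tested. Levels are given as CPM, read counts scaled to a common library total with TMM factors. A gene passed where its p-value, adjusted by Benjamini-Hochberg over 14626 genes in edgeR's quasi-likelihood test, was below 0.05.

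CREB, a calcium-regulated factor of many immediate early promoters, binds the core TGACG or its reverse complement CGTCA. RefSeq (GRCm38.p6) promoter sequences were at hand for 8 of the 10 genes, all but Arc and Egr1. The 250 bases before the start held this core in 8 of 8, against 19.8% of 27025 genes with windows of that length. Egr2 has 5 such windows and counted where any held a match. The core was searched on both strands and was chosen after these sequences had been read. Shown 5′ to 3′, with each core in capitals, are promoters of genes on which the results turn, except Arc, which had no sequence at hand. They are those of Fos (chr12:85473640-85473889, plus strand), Fosb (chr7:19310046-19310295, minus strand), Junb (chr8:84978749-84978998, minus strand), Npas4 (chr19:4989972-4990221, minus strand) and Cyr61, now named Ccn1 (chr3:145649986-145650235, minus strand).
Fos: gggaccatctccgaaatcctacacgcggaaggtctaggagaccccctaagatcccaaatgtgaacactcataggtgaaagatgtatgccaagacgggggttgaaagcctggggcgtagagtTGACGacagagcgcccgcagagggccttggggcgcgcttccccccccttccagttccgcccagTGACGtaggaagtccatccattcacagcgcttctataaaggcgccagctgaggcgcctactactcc
Fosb: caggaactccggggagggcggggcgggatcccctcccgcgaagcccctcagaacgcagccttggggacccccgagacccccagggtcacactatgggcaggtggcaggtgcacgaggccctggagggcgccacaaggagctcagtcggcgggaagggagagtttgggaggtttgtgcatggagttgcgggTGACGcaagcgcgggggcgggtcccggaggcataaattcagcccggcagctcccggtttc
Junb: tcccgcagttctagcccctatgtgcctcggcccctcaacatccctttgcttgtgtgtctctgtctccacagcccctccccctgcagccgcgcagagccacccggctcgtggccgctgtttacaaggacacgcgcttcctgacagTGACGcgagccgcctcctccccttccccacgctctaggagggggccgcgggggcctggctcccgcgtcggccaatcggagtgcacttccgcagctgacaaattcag
Npas4: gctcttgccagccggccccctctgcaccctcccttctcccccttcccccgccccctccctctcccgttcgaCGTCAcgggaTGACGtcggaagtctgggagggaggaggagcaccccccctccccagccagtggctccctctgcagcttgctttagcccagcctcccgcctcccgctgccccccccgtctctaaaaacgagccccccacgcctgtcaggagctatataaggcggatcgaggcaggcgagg
Cyr61: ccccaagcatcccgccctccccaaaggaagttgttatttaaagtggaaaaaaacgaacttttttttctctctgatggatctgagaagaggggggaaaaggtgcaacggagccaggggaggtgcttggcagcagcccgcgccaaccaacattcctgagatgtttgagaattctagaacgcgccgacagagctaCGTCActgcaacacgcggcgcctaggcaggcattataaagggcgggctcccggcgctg
Fos held 2 cores, at 129 and 66 bases before the start, and Npas4 held 2, at 179 and 169. Fosb, Junb and Cyr61 held 1 each, at 60, 106 and 58 bases. The full palindrome TGACGTCA was found in 0 of the 8 genes and in 1.77% of all genes. The CArG box, the SRF site, was found in 1 of 8, Egr2, against 1.62% of all genes. The EGR site GCGNGGGCG was found in 2 of 8, Fosb and Nr4a1, against 5.33% of all genes. The TEAD site CATTCC was found in 3 of 8, Cyr61 among them, against 14.4% of all genes. The AP-1 site TGANTCA and the NR4A site AAAGGTCA were found in 0 of 8, against 7.82% and 1.55% of all genes. Both strands were searched for each motif, and the TGACG core lies within the palindrome. Sites further than 250 bases before the start were not searched. A match describes these letters alone and was not tied to binding.

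Some of the 12 libraries stood apart. Reads assigned to genes ran from 13342177 to 18886822 a library. Mitochondrial genes took 15.2% of reads in ECM 2, 13.2% in ECM 3 and 10.7% in control 4, against 4.74% to 7.89% in the other libraries. The summed CPM of 11 cerebellum markers was 566 in treated ECM 3, 305 in ECM 1, 273 in ECM 3 and 509.98 in control 4, and between 1731 and 7029 elsewhere. Defining neuron, astrocyte, microglia and endothelial markers were present in every group. In bulk tissue, fewer cells of a type and less RNA per cell cannot be told apart.

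The immediate early genes followed different patterns in the 3 groups. Fos, Fosb, Junb and Cyr61 rose in ECM brain against control brain. After artesunate Cyr61 was lower than in ECM, while Arc was higher than in either other group. All 9 measured genes had every treated library above every control library. Except for Cyr61, ECM brains were the most uneven by the ratio of highest to lowest library. ECM 4 was the highest ECM library for 9 of 9 genes, and ECM 3 the lowest for 7 of 9. The other groups had such libraries too. Treated ECM 1 was the lowest treated library for 9 of 9 genes, and treated ECM 3 the highest for 6. Control 2 was the lowest control for 7 of 9, and control 3 the highest for 6. The genes thus moved partly together by library, and counts over the 9 are not 9 separate results. How often these libraries were highest or lowest over all genes was not counted.

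**Figure D1:**
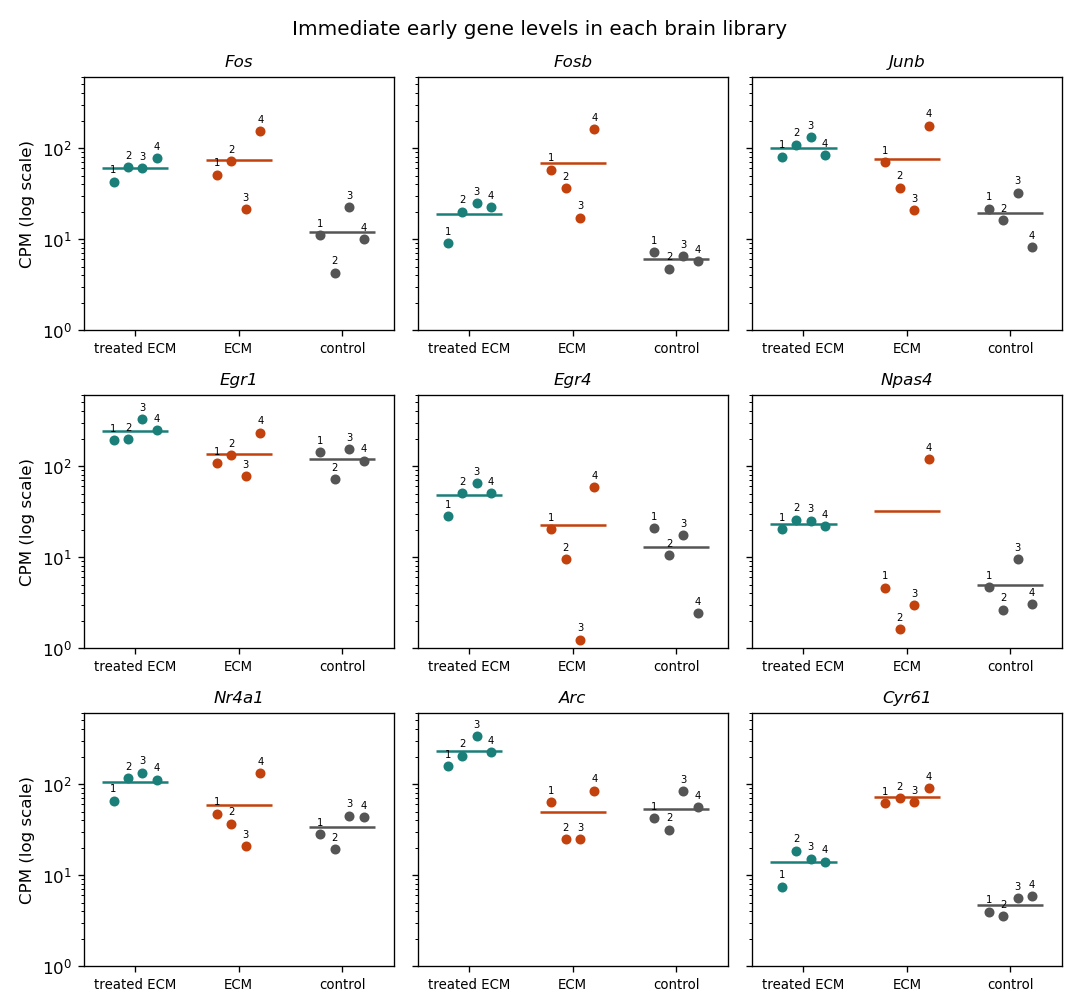
Level of each immediate early gene (CPM, log scale) in the 4 libraries of each group, with points numbered by library and lines at group means. Treated libraries lie above all control libraries in the 9 panels, and ECM 4 is the highest ECM point in each.

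The AP-1 genes come first. Fos and Fosb encode subunits that pair with Jun proteins to form the AP-1 transcription factor, and Junb encodes one of those partners. Fos (chr12:85473890-85477273, plus strand, GRCm38) had 42.9, 61.6, 60.3 and 77.98 CPM in treated ECM libraries, 51.1, 72.3, 21.3 and 154 CPM in ECM, and 11.1, 4.28, 22.4 and 10.1 CPM in control. Every treated library lay above every control, and the lowest ECM library, ECM 3, lay just under the highest control. Fos rose in ECM against control (log2 fold change 2.65 ± 0.55, adjusted p = 0.00694), with group means of 74.8 ± 57.1 and 11.97 ± 7.6 CPM (SD, n = 4 each). It also rose in treated ECM against control (log2 2.35 ± 0.55, adjusted p = 0.0442), a call lost in 8 of 12 omissions of 1 library (adjusted p up to 0.14). Treated ECM against ECM did not pass (log2 -0.30 ± 0.52, adjusted p = 0.742).

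Fosb, whose truncated splice form is a long-lived marker of repeated stimulation (chr7:19302696-19310051, minus strand), had 8.98, 20.0, 24.9 and 22.6 CPM in treated ECM, 57.8, 36.03, 17.2 and 162 CPM in ECM, and 7.19, 4.73, 6.54 and 5.78 CPM in control. Each ECM library and each treated library was above all controls, and treated and ECM libraries overlapped through ECM 3. Fosb rose in ECM against control (log2 3.49 ± 0.58, adjusted p = 0.00127), and the call held without ECM 4 (log2 2.61, adjusted p = 0.00111). Treated ECM against ECM missed the threshold (log2 -1.84 ± 0.54, adjusted p = 0.0511). It passed under 7 of 21 alternatives, DESeq2 (adjusted p = 0.00386) and the omission of ECM 3 (0.0152) or control 4 (0.0412) among them. Without ECM 4 it was log2 -0.95 (adjusted p = 0.112). Treated ECM against control missed it as well (log2 1.65 ± 0.55, adjusted p = 0.247), and passed without ECM 4 (adjusted p = 0.0418). Spliced forms are not separated in counts per gene.

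Junb (chr8:84974484-84978718, minus strand) had 80.6, 109, 131 and 83.9 CPM in treated ECM, 69.99, 36.7, 20.9 and 176 CPM in ECM, and 21.6, 16.1, 32.3 and 8.14 CPM in control. Treated libraries were above all controls, while ECM ran from control level in ECM 3 to above the highest treated library in ECM 4. Junb rose in ECM against control (log2 1.96 ± 0.56, adjusted p = 0.0413). This call was lost in 9 of 12 omissions of 1 library, and without ECM 4 the log2 fold change was 1.12 (adjusted p = 0.144). Treated ECM against control gave log2 2.37 ± 0.57 and missed the threshold (adjusted p = 0.0515), and passed without ECM 4 (adjusted p = 0.00921). Treated ECM against ECM did not pass (log2 0.41 ± 0.54, adjusted p = 0.658), nor did it without ECM 4 (log2 1.25, adjusted p = 0.081).

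The EGR genes encode zinc finger factors that bind GC-rich promoter sites, and Egr1 is the most widely used of them as a map of neuronal activity. Egr1 (chr18:34859823-34864984, plus strand) had 192, 198, 328 and 249.3 CPM in treated ECM, 107, 133, 77.8 and 232 CPM in ECM, and 142, 71.9, 154 and 115 CPM in control. ECM and control overlapped, and the treated libraries were above all controls. No comparison passed for Egr1: log2 0.19 ± 0.32 in ECM against control (adjusted p = 0.798), 0.82 ± 0.32 in treated ECM against ECM (adjusted p = 0.132) and 1.00 ± 0.32 in treated ECM against control (adjusted p = 0.226). Without ECM 4 Egr1 was higher in treated ECM than in ECM (log2 1.19, adjusted p = 0.0225).

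Egr4 (chr6:85511121-85513589, minus strand), a neuronal relative of Egr1, had the widest spread of the 9 genes in control. It had 28.2, 50.1, 64.7 and 50.2 CPM in treated ECM, 20.5, 9.6, 1.24 and 58.96 CPM in ECM, and 20.9, 10.5, 17.6 and 2.43 CPM in control. The lowest levels were in ECM 3 and control 4, both libraries with few cerebellum reads and a raised mitochondrial share. Egr4 did not pass in ECM against control (log2 0.82 ± 0.79, adjusted p = 0.61), in treated ECM against ECM (log2 1.09 ± 0.78, adjusted p = 0.397) or in treated ECM against control (log2 1.91 ± 0.81, adjusted p = 0.396). Without ECM 4 these were log2 -0.30 in ECM against control and 2.21 in treated ECM against ECM (adjusted p = 0.847 and 0.0735).

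Npas4 encodes a neuron-restricted factor that responds to calcium entry and shapes inhibitory synapses (chr19:4984355-4990316, minus strand). It had 20.4, 25.9, 25.2 and 21.8 CPM in treated ECM, 4.65, 1.63, 2.98 and 119 CPM in ECM, and 4.7, 2.66, 9.59 and 3.07 CPM in control. The treated libraries sat in a narrow band, with the highest 1.27 times the lowest. In ECM the highest was 73.0 times the lowest: 3 libraries were within or below the control range, and ECM 4 was above all other libraries. With all 12 libraries in the fit no comparison passed: log2 2.69 ± 1.07 in ECM against control (adjusted p = 0.147), -0.47 ± 0.99 in treated ECM against ECM (adjusted p = 0.799) and 2.23 ± 1.06 in treated ECM against control (adjusted p = 0.444). Without ECM 4 Npas4 was higher in treated ECM than in ECM (log2 2.91, adjusted p = 0.00397) and than in control (log2 2.23, adjusted p = 0.00896). Another omission went the other way. Without control 4, ECM 2 and ECM 3, Npas4 was higher in ECM than in control (log2 3.49, adjusted p = 0.0218). Treated ECM against ECM was then log2 -1.42 (adjusted p = 0.23). Which libraries were left out thus decided the call.

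Nr4a1, which encodes the orphan nuclear receptor Nur77 (chr15:101254269-101274795, plus strand), had 65.9, 116, 133 and 111 CPM in treated ECM, 47.3, 36.7, 20.97 and 131 CPM in ECM, and 28.0, 19.2, 45.2 and 43.6 CPM in control. ECM 4 reached the treated level, and the other ECM libraries lay in or near the control range. No comparison passed: log2 0.80 ± 0.47 in ECM against control (adjusted p = 0.349), 0.85 ± 0.46 in treated ECM against ECM (adjusted p = 0.264) and 1.65 ± 0.47 in treated ECM against control (adjusted p = 0.139). Without ECM 4 the log2 fold change of ECM against control was 0.04 (adjusted p = 0.959), and Nr4a1 was higher in treated ECM than in control (adjusted p = 0.0171) and than in ECM (log2 1.61, adjusted p = 0.0164). Another omission went the other way. Without control 4, ECM 2 and ECM 3, Nr4a1 was higher in ECM than in control (log2 1.56, adjusted p = 0.0313). Treated ECM against ECM was then log2 0.25 (adjusted p = 0.721).

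Of the effector genes, Arc encodes a synaptic protein that removes AMPA receptors from the surface and packages its own RNA into capsids. Arc (chr15:74669083-74672570, minus strand) had 158, 205, 333 and 223 CPM in treated ECM, 63.6, 25.0, 24.9 and 84.9 CPM in ECM, and 42.4, 31.7, 83.4 and 56.1 CPM in control. All treated libraries were above all others, while ECM and control shared a range. Arc averaged 229.98 ± 74.1 CPM in treated ECM, 49.6 ± 29.8 CPM in ECM and 53.4 ± 22.4 CPM in control (SD, n = 4 each). It rose in treated ECM against ECM (log2 2.21 ± 0.42, adjusted p = 0.00763) and against control (log2 2.11 ± 0.42, adjusted p = 0.0155). The call against ECM held in all 12 omissions of 1 library. That against control was lost in 3, without treated ECM 3, control 1 or control 2 (adjusted p up to 0.0684). ECM against control did not pass (log2 -0.10 ± 0.41, adjusted p = 0.92), and its sign turned without control 3, ECM 2 or ECM 3 (log2 up to 0.19).

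Cyr61 encodes a secreted matrix protein of the CCN family that acts on integrins, and is a known target of SRF and of YAP with TEAD. Cyr61 (chr3:145646976-145649981, minus strand) had 7.5, 18.6, 15.2 and 14.1 CPM in treated ECM, 61.5, 70.2, 63.3 and 90.3 CPM in ECM, and 3.98, 3.57, 5.56 and 5.93 CPM in control. The 3 groups did not overlap, with ECM highest and control lowest. Cyr61 rose 15.0-fold in ECM against control (log2 3.91 ± 0.29, adjusted p = 1.42e-06). In treated ECM it fell against ECM (log2 -2.37 ± 0.27, adjusted p = 0.000411) and was 2.91-fold above control (log2 1.54 ± 0.27, adjusted p = 0.00594). These 3 calls held in all 12 omissions of 1 library. Its ECM libraries were also the most even of the 9 genes, the highest being 1.47 times the lowest.

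**Figure D2:**
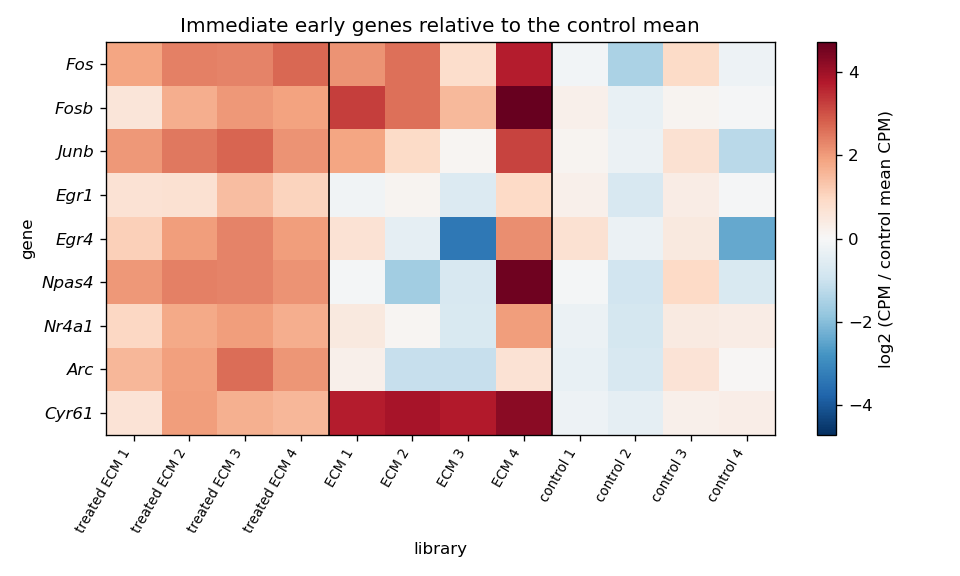
Each immediate early gene in each library as log2 of its CPM over the control mean, from the treated ECM libraries on the left to the control libraries on the right. Cyr61 is high in all 4 ECM libraries, while Npas4 is high in ECM 4 alone among them, and the treated columns are raised in all 9 rows.

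Counted by comparison, 4 of 9 genes were higher in ECM than in control and 0 lower, where 7.09% of all tested genes were higher and 3.15% lower, 10.2% in all. The 9 had a median log2 fold change of 1.96, against -0.02 over all genes. Every ECM library was above every control for 2 of 9, Fosb and Cyr61, against 8.83% of all genes measured in 12 libraries. For 0 of 9 was every ECM library below every control, against 5.65% of all genes. In treated ECM against ECM, 1 of 9 was higher and 1 lower, where 3.17% and 5.17% of all genes were, 8.34% in all. Every treated library was above every ECM library for Arc, against 11% of all genes, and below for Cyr61, against 10.8%. The median log2 fold change was 0.41, against 0.00 over all genes. Without ECM 4, 4 of 9 were higher (Arc, Egr1, Npas4 and Nr4a1) and 1 lower (Cyr61), where 5.47% of all genes were higher and 8.1% lower. ECM 4 was the highest ECM library for all 9 genes, so its omission could only lower their ECM means. Without control 4, ECM 2 and ECM 3 instead, Egr1 (log2 0.51), Npas4 (log2 -1.42) and Nr4a1 (log2 0.25) did not pass. Arc was again higher in that fit, and Cyr61 and Fosb were lower.

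In treated ECM against control, 3 of 9 genes were higher (Arc, Fos and Cyr61) and 0 lower, where 1.98% of all genes were higher and 0.0547% lower, 2.03% in all. At an unadjusted p below 0.05, 8 of 9 were higher and 0 lower, where 6.71% of all genes were higher. DESeq2 called 6 higher and 0 lower, where it called 2.94% of all genes higher. The median was 1.91, against 0.00 over all genes, and the treated libraries were above all controls in 9 of 9 genes, against 10.8% of all genes measured in 12 libraries, and below in 0 of 9, against 7.99%. The edgeR count was 1 without treated ECM 3, control 1 or control 2, where 1.55%, 1.5% and 1.61% of all genes were higher. It was 7 without ECM 4, where 2.04% were. With all ECM libraries out of the fit it was also 7, where 2.06% were, leaving Egr1 (adjusted p = 0.098) and Egr4 (adjusted p = 0.129) as the members that did not pass. The authors' deposited table for this comparison, which holds only genes past limits on fold and p that the authors set, lists 8 of the 9 genes, all but Egr1, with adjusted p-values of 4.59e-09 for Junb to 0.0044 for Egr4. Both comparisons against control share the same 4 control libraries.

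**Figure D3:**
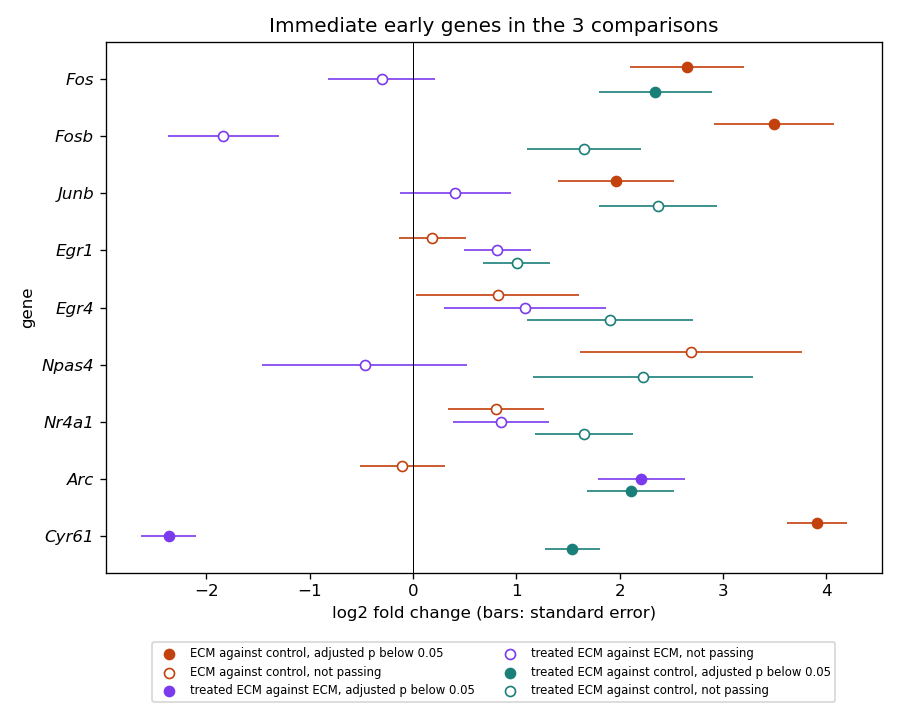
Log2 fold change of each immediate early gene in the 3 comparisons, with bars for the standard error and filled points for an adjusted p below 0.05. Treated ECM against control lies right of 0 for all 9 genes, from 1.00 for Egr1 to 2.37 for Junb.

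Ratios between genes within a library were compared as well, and 0 pairs passed after adjustment. The ratio of Fos to Arc within a library, as log2, was -1.89 ± 0.41 in treated ECM, 0.46 ± 0.88 in ECM and -2.23 ± 0.43 in control (SD, n = 4 each). The ECM values, from -0.31 to 1.52, lay apart from both other groups. Fosb to Junb was -2.44 ± 0.50 in treated ECM, -0.17 ± 0.12 in ECM and -1.47 ± 0.74 in control, and ECM again lay apart, from -0.27 to -0.03. All 36 pairs of genes were compared in 3 comparisons by a two-sided exact permutation test, decided on after the values were seen. The smallest p this design allows, 0.0286, was reached by 15 pairs in ECM against control, 21 in treated ECM against ECM and 5 in treated ECM against control. Adjusted over the 108 tests it became 0.0753, so 0 pairs passed. A pair could pass here only if most of the 108 tests reached that smallest p. The 0 therefore cannot tell pairs that differ from pairs that do not. How many of all gene pairs reach it was not counted. The 2 pairs described above are examples from the 36, and their separation is not read as special to these genes.

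Levels can be set side by side between genes only per length, here as RPKM, CPM divided by the exon length in kilobases. In treated ECM the order ran from Arc at 75.2 ± 24.3, Egr1 at 53.96 ± 14.1 and Junb at 43.9 ± 10.3 down to Cyr61 at 6.86 ± 2.3, Npas4 at 5.64 ± 0.64 and Fosb at 3.06 ± 1.13 RPKM. In ECM it began with Cyr61 at 35.3 ± 6.54, Junb at 33.0 ± 30.4 and Fos at 31.8 ± 24.3 RPKM. In control it began with Egr1 at 26.9 ± 8.12 and Arc at 17.5 ± 7.31, with Cyr61 at 2.36 ± 0.57 and Fosb at 0.97 ± 0.17 RPKM near the end (SD, n = 4 throughout). Neighbours in the ECM order differed by less than the larger of their SDs in 8 of 8 cases. In treated ECM and in control this held for 5 of 8 each.

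Other rapid-response genes, 73 of them in 6 lists, were read in the same fit. In ECM against control 31 of 72 tested were higher and 1 lower, where 7.09% and 3.15% of all genes were. In treated ECM against ECM 1 was higher and 9 lower, where 3.17% and 5.17% of all genes were. In treated ECM against control 9 were higher and 0 lower (by DESeq2 16 and 0, and at an unadjusted p below 0.05 32 and 2), where 1.98% and 0.0547% of all genes were by edgeR. Their medians were 0.71, -0.24 and 0.53 on the log2 scale. Of the AP-1 partners and repressors, 6 of 10 were higher in ECM. Batf2, an interferon-responsive member, had 6.59 ± 3.16 CPM in treated ECM, 4.15 ± 0.85 in ECM and 0.13 ± 0.09 in control, and was higher than control both in treated ECM (log2 5.56, adjusted p = 2.57e-05) and in ECM (log2 4.90, adjusted p = 2.47e-05). Atf3, a stress-induced repressor, rose in ECM (log2 2.76, adjusted p = 0.000719) and in treated ECM (log2 2.71, adjusted p = 0.00264). The small Maf gene Maff rose in ECM (log2 4.00, adjusted p = 4.99e-05) and was lower in treated ECM than in ECM (log2 -1.54, adjusted p = 0.0303). Batf rose in ECM as well (log2 3.52, adjusted p = 0.000414).

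Genes shared by many stimuli were higher in ECM in 18 of 26, against 7.09% of all genes, and 7 of 26 were lower in treated ECM than in ECM, against 5.17%. The cell cycle inhibitor gene Cdkn1a had 29.0 ± 4.23 CPM in treated ECM, 126 ± 34.0 in ECM and 16.2 ± 2.55 in control. Zfp36, which destabilises cytokine mRNAs, had 9.92 ± 1.06 CPM in treated ECM, 34.2 ± 18.3 in ECM and 3.1 ± 0.61 in control. Apold1, an early gene of endothelium, had 20.9 ± 5.33 CPM in treated ECM, 90.3 ± 22.9 in ECM and 6.7 ± 4.27 in control. For these 3 the rise in ECM and the lower level after treatment both passed (adjusted p = 1.48e-06 to 4.61e-05 and 0.000203 to 0.00605). Socs3, the feedback inhibitor of cytokine receptors, rose in ECM (log2 4.25, adjusted p = 0.000108) and in treated ECM against control (log2 2.69, adjusted p = 0.00982).

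Neuronal activity effectors were higher in ECM in 4 of 21 and lower in 1, against 7.09% and 3.15% of all genes. The prostaglandin synthase gene Ptgs2 had 32.8 ± 6.11 CPM in treated ECM, 52.7 ± 7.71 in ECM and 9.62 ± 3.8 in control, and rose in both against control (adjusted p = 3.22e-05 for ECM and 0.00149 for treated ECM). The kinase gene Sik1 (log2 1.24, adjusted p = 0.00767) and the pentraxin gene Nptx2 (log2 1.15, adjusted p = 0.0127) rose in ECM, and the activin subunit gene Inhba fell (log2 -1.16, adjusted p = 0.0299). Nr4a2, the relative of Nr4a1, was the 1 gene of these lists that was higher in treated ECM than in ECM (log2 0.81, adjusted p = 0.0404), a call lost in 9 of 12 omissions of 1 library. Of the EGR relatives and their NAB corepressors 0 of 3 passed in any comparison by edgeR, and 1 was higher at an unadjusted p below 0.05 in each, and by DESeq2 in ECM against control and in treated ECM against ECM. The MAP kinase phosphatase genes Dusp2 (log2 3.45, adjusted p = 8.73e-05) and Dusp1 (log2 1.41, adjusted p = 0.00865) rose in ECM, where 3 of 10 such feedback genes did, against 7.09% of all genes.

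The SRF and YAP target list set Cyr61 beside genes of the same kind. In ECM against control 5 of 20 were higher and 0 lower, against 7.09% and 3.15% of all genes, and in treated ECM against ECM 2 were lower, against 5.17% of all genes. In treated ECM against control 0 passed by edgeR, 0 by DESeq2 and 0 at an unadjusted p below 0.05. Of all genes 1.98%, 2.94% and 6.71% were higher by these, so 0 of 20 is near those shares. The log2 fold change was positive in 17 of 20, against 50.4% of all genes. Every treated library was above every control for 3, against 10.8% of all genes. Thbs1, which encodes thrombospondin-1, had 4.9 ± 1.1 CPM in treated ECM, 19.4 ± 4.26 in ECM and 4.2 ± 1.1 in control. Ctgf, the closest relative of Cyr61 in the CCN family named here, had 28.0 ± 7.78 CPM in treated ECM, 65.3 ± 20.9 in ECM and 27.9 ± 7.94 in control. Both rose in ECM (adjusted p = 5.68e-05 and 0.0131) and were lower in treated ECM than in ECM (adjusted p = 0.000775 and 0.0198). The contractile protein gene Tagln and the endothelin gene Edn1 rose in ECM as well (adjusted p = 0.0102 and 0.0176).

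Markers of cell types moved with some of these genes. The summed CPM of 8 endothelial markers was 312 to 394 in treated ECM, 449 to 639.9 in ECM and 258 to 323 in control, so ECM lay above both others, as it did for Cyr61. In ECM against control 5 of 8 of these markers were higher and 2 lower. Of all genes 7.09% were higher and 3.15% lower in that comparison, the shares for the counts that follow as well. The summed CPM of 7 T and NK cell markers was 20.5 to 46.7 in treated ECM, 89.4 to 196 in ECM and 0.166 to 0.843 in control, with 7 of 7 higher in ECM. For 6 monocyte and macrophage markers it was 16.4 to 27.2 in treated ECM, 95.5 to 240.04 in ECM and 5.98 to 8.3 in control, with 6 of 6 higher in ECM. The summed CPM of 10 pan-neuronal markers overlapped in all groups, and 0 of 10 passed in any comparison by edgeR or by DESeq2, with 1 lower in treated ECM against ECM at an unadjusted p below 0.05. For 9 striatal markers the sum was 1081 to 1340.2 in treated ECM, 356 to 1212 in ECM and 944 to 1467 in control. Of these, 5 of 9 were lower in ECM than in control (median log2 -0.89), against 3.15% of all genes. In treated ECM against ECM 3 of 9 were higher, against 3.17% of all genes (median log2 0.76, 9 of 9 positive), the direction of Arc. For 5 erythroid markers it was 14.2 to 86.3 in treated ECM, 0 to 0.787 in ECM and 11.6 to 47.3 in control, with Hbb-bt at 0 in ECM. The part of these cells in the immediate early gene levels was not tested.

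Many immediate early genes are transcribed strongly in forebrain neurons. The summed CPM of 8 cortical and hippocampal neuron markers was 4003, 3952, 5345 and 3153 in treated ECM, 4491, 1553, 3199 and 4878 in ECM, and 4467, 2598, 3597 and 2305 in control. Treated ECM 3 and ECM 4, the highest of their groups by these markers, also had the highest summed immediate early genes, 1117 and 1208 CPM. Control 2 and control 4, low by these markers, had the lowest sums among controls, 165 and 250.2 CPM. The order did not hold throughout: control 1, highest of the controls by markers, had 282 CPM and control 3 had 376 CPM, and ECM 2, lowest by markers, had 421 CPM and ECM 3 had 251 CPM. The part of these neurons in the levels was not tested beyond the fit that follows, added after the data were seen. With the mean of these markers as a covariate, 4 of 9 genes passed in ECM against control, where 12% of all genes did. In treated ECM 3 of 9 passed against ECM, where 7.45% of all genes did, and 3 of 9 against control, where 2.1% did. In that fit Arc stayed higher in treated ECM than in ECM (log2 2.05, adjusted p = 0.00798), and Fos no longer passed in treated ECM against control (log2 2.31, adjusted p = 0.0653) while Junb did (log2 2.15, adjusted p = 0.0438).

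**Figure D4:**
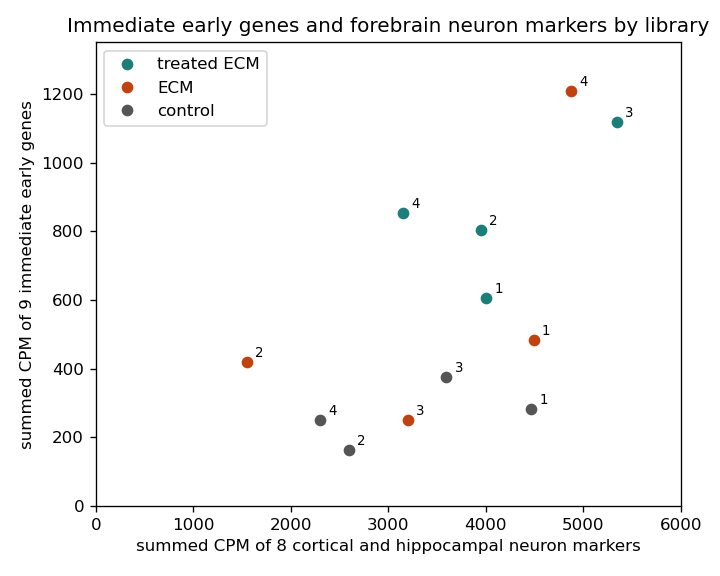
Summed CPM of the 9 measured immediate early genes against summed CPM of 8 cortical and hippocampal neuron markers, 1 point a library, numbered within its group. The treated libraries, at 605 to 1117 CPM, lie above the controls, at 165 to 376 CPM, over marker sums that overlap. Arc and Egr1 were 158 and 192 of the 605 CPM in treated ECM 1, so the sum does not speak for each gene. The part of these neurons in the difference was not tested by this plot.

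Profiles over the 12 libraries were compared as the root mean square difference of log2 CPM standardised within each gene, where 0 is identity, over 13220 genes. The closest pair of members was Egr1 and Nr4a1 (0.39) and the farthest Arc and Cyr61 (1.45). Fosb was closest to Cyr61 (0.46). The genes most like the mean of the 9 were Ptpn1 (0.35), Stra6 (0.38), Fosl2 (0.42), Per1 (0.43) and Arl4d (0.44). For Fos alone they were Dusp1, Trib1 and Fam58b (0.26 to 0.3), for Fosb Tbxas1, Depp1 and Adam8 (0.26 to 0.28), and for Junb Ptpn1, Btg2 and Chst2 (0.22 to 0.35). For Npas4 they were Jun, Phc1 and Apex1 (0.32 to 0.38), for Arc Ciita, Tle1 and Slc39a2 (0.38 to 0.42), and for Nr4a1 Tle1, Rbm24 and Dusp6 (0.27 to 0.51). For Egr4 they were Znrf1, Spata2l and Pi16 (0.21 to 0.24). Cyr61 was closest to Cd2, Cd93 and Mx2 (0.17 to 0.19).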

How the data were processed

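Per the submitters' processing notes, the authors' tools were Trimmomatic, FastQC, STAR and HTSeq and the genome build was mm10. The deposited values are a whole-number read count of each gene. The sources used here give no tool version and no annotation. Libraries came from Trizol RNA and a NEBNext Ultra kit, per the labels. The authors' deposited tables of 3 comparisons also hold a log2 fold change, a p-value, a normalized signal and an FPKM per gene, per the file headers. The first 2 were quoted, and signal and FPKM were not used. In the rows of 2212 genes with names of 8 or more characters, none of them a member, the name ran into the next column and displaced the counts by 1 column, and these were put back. Treated ECM 4 then differed from the authors' read counts in these genes, so they were fitted with 11 libraries, which departs from the planned fit of 12. CPM totals cover the genes that were not displaced, and exon lengths are from the GENCODE annotation of GRCm38.

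TMM scaling and filterByExpr came first, and counts were then fitted in 1 edgeR quasi-likelihood model (edgeR 4.0.16, R 4.3.3) with a mean per group. DESeq2 1.42.0 was an alternative. Exact permutation tests used scipy 1.17.1. Benjamini-Hochberg adjustment ran over the 14626 genes tested, and log2 CPM used a pseudocount of 0.5. The fit was tested on simulated data for ECM against control with 13424 genes: it called 38 of 97 genes changed by a log2 of 1, 86 of 94 changed by 2 and 5 of 13233 unchanged. Genes named are the members, up to 4 passing genes per list and comparison with the smallest p, and the closest profiles among genes of at least 1 CPM. The profiles closest to Egr1 are not reported here. Members and lists were chosen with earlier results of these data known. Replicate numbers were not used to pair libraries across groups in the main fit.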

Additional observations from a re-analysis of the deposited data

Results flagged for a closer look

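Npas4 in ECM 4, at 119 CPM, lay far from the other ECM libraries, of which the next was at 4.65 CPM. The gap was 0.974 of the group's range, above Dixon's critical value for 4 samples. It was the 1 such case in 27 sets of 4 libraries (9 genes in 3 groups), and chance gives about 1 in 20.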

How the results depend on the processing

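Cyr61 in the 3 comparisons, Arc in treated ECM against ECM, and Fos and Fosb in ECM against control passed under all 21 alternatives. The number of immediate early genes passing in treated ECM against control, 3, became 6 with DESeq2, 7 with the 2 groups alone in the fit, and 5 without control 4, ECM 2 and ECM 3. The 32 other rapid-response genes in ECM against control became 21 with 2 groups alone. The 10 in treated ECM against ECM became 19 with DESeq2, 4 with the replicate block and 25 without those 3 libraries. The 9 in treated ECM against control became 16 with DESeq2, 15 with the cerebellum covariate and 17 without those 3 libraries. The 5 SRF and YAP targets in ECM against control became 3 with the replicate block, 3 with 2 groups alone and 8 without the 3 libraries, and the 2 in treated ECM against ECM became 5 with DESeq2 and 4 without them. The cause was not tested. For the 6 with DESeq2 and the 7 with the 2 groups alone, 2.94% and 2.06% of all genes were higher. For the other counts here no share of all genes under the same setting is given. Those counts cannot tell a change in these genes from a change in calls over all genes.

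Leaving out 1 library gave 3 to 4 immediate early genes in ECM against control, 2 to 5 in treated ECM against ECM and 1 to 7 in treated ECM against control. In the same order of comparisons it gave 24 to 35, 4 to 19 and 5 to 13 other rapid-response genes, and 3 to 6, 1 to 4 and 0 to 0 SRF and YAP targets. Rapid-response counts in treated ECM against ECM were 6 without treated ECM 1, 4 without treated ECM 2 and 19 without control 4, and in treated ECM against control 5 without treated ECM 3. SRF and YAP counts were 3 without control 1 or control 2, and in treated ECM against ECM 1 without treated ECM 1, 2 or 4 and 4 without ECM 4. Signs turned without ECM 4 for Fos (0.33, range -0.63 to 0.33) and Npas4 (2.91, range -0.88 to 2.91) in treated ECM against ECM, and for Egr1 (-0.19, range -0.19 to 0.40), Egr4 (-0.30, range -0.30 to 1.22) and Npas4 (-0.69, range -0.69 to 3.20) in ECM against control, as log2 over omissions of 1 library. Arc in ECM against control (range -0.50 to 0.19) turned to 0.14, 0.14 and 0.19 without ECM 2, ECM 3 and control 3, and to 0.52 without control 4, ECM 2 and ECM 3. Junb in treated ECM against ECM turned to -0.29 without those 3 libraries. Shares of all genes moved too: 3.17% were higher in treated ECM than in ECM, and 5.47% without ECM 4. Where no such share is given, counts by omission or with the replicate block have the same limit. They cannot tell a change in these genes from a change in calls over all genes.

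Deviations of same-numbered libraries correlated at -0.65 to 0.31. Libraries with different numbers were not compared, so this cannot show whether the numbers mark a pairing or a shared batch. With the replicate block 3, 2 and 2 immediate early genes passed, and Npas4 in treated ECM against ECM turned to 1.30 (adjusted p = 0.554). DESeq2 gave no adjusted p for Npas4. Library size alone as scaling moved the median of all genes in treated ECM against ECM to 0.11. The cortical covariate was chosen after seeing the data.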

Other observations

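Of 15 genes for factors upstream of immediate early transcription (SRF and its partners, CREB, MEF2, YAP and TAZ), 2 were higher in ECM than in control by edgeR, where 7.09% of all genes were, and 1 was higher and 1 lower in treated ECM than in ECM, where 3.17% and 5.17% were. Counts this small are near those shares, and nothing is read from them for the list. Those higher in ECM were Wwtr1, which encodes TAZ, a coactivator of TEAD factors (44.5 ± 14.3 CPM in ECM and 23.0 ± 3.13 CPM in control, adjusted p = 0.0112), and the ETS factor gene Elk3 (adjusted p = 0.0481). In treated ECM against ECM Wwtr1 was lower (log2 -0.78, adjusted p = 0.0387) and Yap1, which encodes the partner coactivator, was higher (31.997 ± 1.78 CPM in treated ECM and 22.3 ± 2.03 CPM in ECM, adjusted p = 0.0403). The calls of Elk3, of Yap1 and of Wwtr1 in treated ECM against ECM were lost in 11, 9 and 9 of 12 omissions of 1 library. In treated ECM against control 0 of 15 passed by edgeR or by DESeq2, and 1 was lower at an unadjusted p below 0.05.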
